A study of Mus musculus with 18 samples.

Results

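In *Tsix*-stop cells, 92 genes had *cast* reads in every wt library and almost none in any *Kdm6a* KO library, and all 92 lay in a single stretch of chromosome 6 between *Cul1* and *Prickle2*. *Tsix*-stop cells are female mouse ES cells with a laboratory strain as the mother and *Mus castaneus* (*cast*) as the father, so that a read covering a SNP can be assigned to the maternal or the *cast* allele. The *cast* share is the number of *cast* SNP reads of a gene divided by its maternal and *cast* SNP reads together. A gene was taken when it had 50 or more SNP reads in each of the 8 wt and KO libraries, a *cast* share of 20% or more in all 4 wt and a *cast* share under 2% in all 4 KO libraries. Of the 24346 symbols in the files, 8898 had enough SNP reads and 8552 also passed the wt criterion, and the 92 genes were 1.08% of these. Some gene families were left out of the rule, which removed none that otherwise passed. The genes were chosen by the KO and wt *cast* shares, so those shares and the differences between KO and wt *Tsix*-stop libraries on a day are given below as a description. Where an edgeR fit over all genes calls some of them, the count stands beside the share called over all genes and nothing is read from it. The change between days was tested, also for its difference between KO and wt.

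Libraries were made at D0, before differentiation, and at D15, after differentiation into embryoid bodies (EBs). Each day had 2 of wt, 2 of the *Kdm6a* KO and 1 of a CRISPR control. All carry a transcriptional stop in the maternal copy of *Tsix*, which makes the maternal X chromosome the inactive one on differentiation. The KO removes part of *Kdm6a*, the X-linked gene of a histone H3K27 demethylase, and the study used 2 homozygous clones, but the labels do not say which clone a library came from. The CRISPR control went through the same CRISPR/Cas9 treatment and kept the gene. The deposited files of its libraries bear a KO name, and the labels were followed here. A second line, E8, from a cross of C57BL/6J (BL6) with *cast*, had 2 wt and 2 KO libraries at D7 and at D15, and its KO is 1 clone that lacks the *Kdm6a* promoter. All cells were grown on mouse embryonic fibroblast feeders before differentiation. The methods call the 2 wt libraries biological replicates, and for E8 they name 1 wt control and 1 clone, but at other days than the labels give. For the E8 libraries used here no source says that replicates came from separate cultures, so their p-values measure only the spread between these libraries, which may be technical.

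The *Tsix*-stop libraries held 51091148 to 68796172 counts on the pseudo-129 genome (the maternal one), used here as the count of all reads of a gene, and 9210225 to 12095548 SNP reads. Intervals and limits below cover counting error only, since reads carry no molecular identifiers. In CPM (reads of a gene scaled to an equal library size), *Kdm6a* had values of 138 and 206 for wt and 128.6 and 47.9 for KO at D0. At D15 the values were 139 and 110 for wt and 94.1 and 27.8 for KO, and the CRISPR control had 127 at D0 and 95.8 at D15. The deletion takes only some exons, and reads from the others remain, so this count does not check the KO. Summed pluripotency markers reached 5784 to 6678 CPM at D0, and at D15 2851 and 3179 CPM in wt, 5338 and 4066 CPM in KO and 2959 CPM in the control. All 7 fibroblast markers were detected at D15, where they summed to 6195 and 5721 CPM in wt, 428 and 565 CPM in KO and 223 CPM in the CRISPR control, against 12.5 to 28.7 CPM at D0. Visceral endoderm markers likewise summed to 327 and 397 CPM in the wt libraries of D15 and to 29.9 CPM or less in all others, cardiac markers to at most 54.4 CPM and neural markers to 45.7 to 145 CPM.

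Most autosomal genes are expressed from both parental copies, so that the SNP reads of a hybrid cell divide about evenly between its alleles. Imprinted genes, regulatory variants and the loss or gain of a chromosome segment each shift that balance. RNA reads alone count transcripts and do not measure the number of DNA copies. Copy number was not measured in these files.

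The 92 genes ran from *Cul1*, a scaffold of SCF ubiquitin ligases (chr6:47453398-47526139, GRCm38, plus strand), to *Prickle2*, a planar cell polarity gene (chr6:92370908-92706155, minus strand), over 45.3 Mb. By GENCODE vM21, 91 were protein-coding and 1, *Zfp862-ps*, was a transcribed pseudogene. They lay on both strands, 51 on the plus and 41 on the minus strand. The widest gap between neighbouring genes of the group, 9.45 Mb, lay between *Suclg1* and *Hk2*. None of the 8453 eligible genes outside the stretch qualified, including 249 elsewhere on chromosome 6. Inside it, 99 genes were eligible and 92 of them, 92.9%, qualified. When the roles of the alleles were exchanged, so that maternal reads had to be missing in KO, 1 gene passed, and when wt and KO were exchanged, 0 genes did.

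The right edge was sharp, and the left edge fell in a gap with few reads. On the left, *Casp2* had 42.4% to 46.3% in the 4 KO libraries. *Cntnap2*, which had too few SNP reads for the rule and lies between *Casp2* and *Cul1*, had 1 *cast* read among 284 SNP reads of the 4 KO libraries, against 169 of 519 in wt. On the right, *Adamts9* begins 66.5 kb past the end of *Prickle2* and had KO shares of 54.0%, 58.3%, 60.4% and 46.0%. *Prickle2* itself had 1, 0, 0 and 1 *cast* reads in these libraries, among 156 to 312 SNP reads. The plot of *cast* share by gene order shows both ends. *Cntnap2* was singled out after its values were seen.

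**Figure D1:**
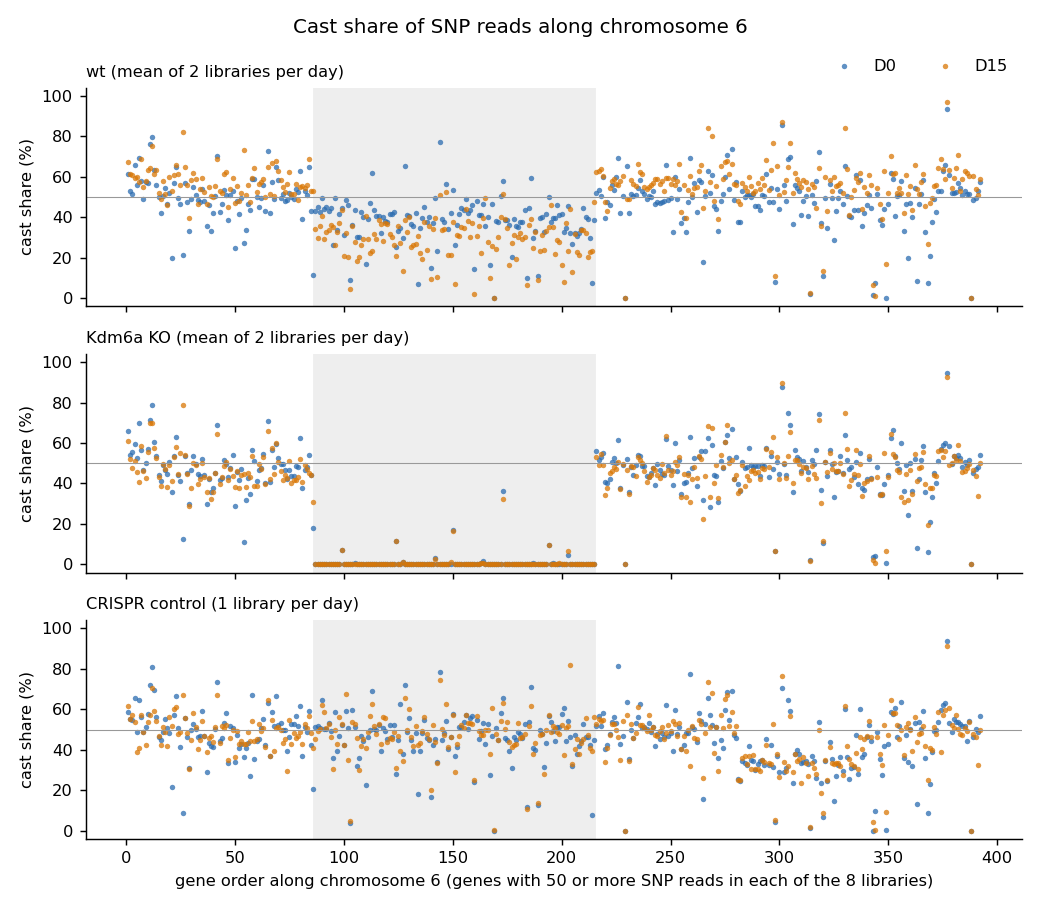
Cast share of SNP reads (%, y axis) of each chromosome 6 gene with 50 or more SNP reads in all 8 libraries, by gene order (x axis), in wt, KO (means of 2 libraries) and the CRISPR control (1 library), with D0 in blue and D15 in orange and the stretch from Cul1 to Prickle2 in grey. In the grey stretch most KO points lie at 0, and most wt points lie below those on either side; most CRISPR control points lie near 50%, with single genes far from it in every panel.

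The 2 genes nearest below the KO limit were *Zxdc* (highest KO share 0.985%) and *H1fx* (1.04%), and the nearest above it in the stretch were *Tet3* (2.09%) and *Ggcx* (4.26%). At the wt limit, *Anxa4* (20%) and *Immt* (20.4%) were just inside and *Lsm3* (19.7%) and *Nfu1* (19.2%) just outside. *Krcc1* and *Mgll* had exactly 50 SNP reads in their shallowest library, while *Ppm1k* had 49 and *C87436* had 46. These last 2 belong to the 50 genes of the stretch that failed on depth alone. Over all 297 shallow symbols of the stretch, *cast* reads made up 0.326% of SNP reads in KO and 45.0% in wt.

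A few well-covered genes within the stretch had more reads assigned to *cast* in KO. Whether such reads came from near-identical copies of these genes was not checked. *Fam136a* had 31.6% to 38.0% in the 4 KO libraries, *Mrpl19*, of the mitochondrial ribosome, 16.0% to 18.1%, *Mcm2*, of the replicative helicase, 9.36% to 9.76%, *Igf2bp3*, an mRNA-binding protein, 6.37% to 7.45%, and the nucleoporin gene *Nup210* 4.85% to 7.54%. With *Tet3* and *Ggcx* these are the 7 eligible genes that did not qualify. In each of the 7 every KO library was below every wt library. They and *Mad2l1* were named after their values were seen. *Mad2l1*, a spindle checkpoint gene that missed the wt criterion, had 11.01% to 12.4% in KO and 18.9% to 26.1% in wt. Of the 30 genes that failed on the wt share, 28 were under 2% in all 4 KO libraries.

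For 4 genes on which the results turn, the 300 bases around the start, 250 before and 50 after it, are shown from RefSeq (GRCm38.p6) with CpG dinucleotides in capitals, because the group was searched for shared promoter features. *Ezh2* (chr6:47594981-47595280, minus strand), *Retsat* (chr6:72598352-72598651, plus strand), *Mthfd2* (chr6:83317555-83317854, minus strand) and *Fbln2* (chr6:91212514-91212813, plus strand) held 31, 16, 15 and 10 CpG dinucleotides.
Ezh2: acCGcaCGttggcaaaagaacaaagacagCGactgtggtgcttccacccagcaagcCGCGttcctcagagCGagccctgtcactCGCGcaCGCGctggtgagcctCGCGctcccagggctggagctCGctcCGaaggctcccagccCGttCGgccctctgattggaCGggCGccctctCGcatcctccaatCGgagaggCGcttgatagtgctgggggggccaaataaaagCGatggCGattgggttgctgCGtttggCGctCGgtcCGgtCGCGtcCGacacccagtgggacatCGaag
Retsat: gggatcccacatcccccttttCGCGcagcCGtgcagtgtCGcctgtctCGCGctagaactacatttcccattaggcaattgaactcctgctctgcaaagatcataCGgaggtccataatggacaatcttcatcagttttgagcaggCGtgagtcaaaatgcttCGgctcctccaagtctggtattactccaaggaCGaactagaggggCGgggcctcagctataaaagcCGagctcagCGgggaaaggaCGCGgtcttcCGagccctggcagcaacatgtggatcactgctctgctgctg
Mthfd2: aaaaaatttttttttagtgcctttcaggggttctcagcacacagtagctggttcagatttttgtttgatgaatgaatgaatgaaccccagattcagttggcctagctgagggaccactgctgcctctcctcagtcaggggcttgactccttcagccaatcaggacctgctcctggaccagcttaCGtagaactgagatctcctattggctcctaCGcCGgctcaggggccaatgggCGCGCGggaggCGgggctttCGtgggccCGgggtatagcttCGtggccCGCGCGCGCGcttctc
Fbln2: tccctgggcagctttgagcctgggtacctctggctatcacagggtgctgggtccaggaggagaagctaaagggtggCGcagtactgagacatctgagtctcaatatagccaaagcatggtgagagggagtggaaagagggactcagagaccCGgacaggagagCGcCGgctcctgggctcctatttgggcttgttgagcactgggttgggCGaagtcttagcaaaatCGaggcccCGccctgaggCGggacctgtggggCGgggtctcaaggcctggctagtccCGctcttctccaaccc
RefSeq promoters were found for 80 of the 92 genes, 106 promoters in all. Their median GC content of 60.3% and median of 20 CpG dinucleotides were close to the 61.7% and 22 of the 8839 promoters of genes with enough SNP reads. CCGGAAG, an ETS-type motif searched on both strands, stood in 15.1% of them, against 19.2% of the well-covered genes and 8.86% of all 32851 promoters, and CCAAT in 36.8%, 38.3% and 37.4%. TATAAA stood in 2.83%, 6.17% and 13.6%, the NRF1 motif in 1.89%, 2.29% and 0.971%, and the YY1 motif in 0%, 1.74% and 0.633%, in the same order. By these letters and composition the promoters of the group resembled those of other well-covered genes.

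Over the 92 genes together, *cast* reads were 0.132% of 62730 SNP reads in the first KO library of D0 (95% Wilson interval 0.107% to 0.164%) and 0.116% of 77300 in the second. At D15 they were 0.0744% (0.0540% to 0.103%) and 0.0630% (0.0461% to 0.0860%). A single gene never exceeded 1.04%, and 267 of the 368 gene and library values held no *cast* read. In 39 genes no KO library had any. The genes with most residual reads were among the best covered. *Hnrnpa2b1*, a nuclear RNA-binding protein gene, had 48 *cast* reads among 11836 in the 4 KO libraries, *Gars*, the glycyl-tRNA synthetase gene, 26 of 21142, and *Hk2*, a hexokinase gene, 18 of 15521. *Retsat*, of retinol metabolism, had 0 of 347, which allows a share of up to 0.865%, and *Tcf7l1*, a transcription factor of the Wnt pathway, had 0 of 1982, which allows up to 0.151%.

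The wt libraries were not balanced over the same genes either. The median *cast* share of the 92 genes was 41.8% and 39.1% in the 2 wt libraries of D0 and 32.9% and 32.7% in those of D15. The 263 other chromosome 6 genes with enough reads had 49.7% and 50.1% at D0 and 56.4% and 56.3% at D15. All other well-covered autosomal genes had 49.4%, 49.3%, 50.2% and 50.1%. The wt share inside the stretch was therefore below that of its flanks on both days, and the distance was larger at D15. In 69 of the 92 genes (75%) both wt libraries of D15 lay below both of D0, as did 28.4% of all 8898 genes with enough SNP reads and 7.60% of the other chromosome 6 genes. With 2 libraries against 2, an exact permutation test of the share cannot give a p below 0.333, so this fall is a description.

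In the CRISPR control both alleles were present at every gene of the group. The median *cast* share was 49.0% at D0 and 49.5% at D15, and 78 and 79 of the 92 genes lay between 40% and 60%. No gene was under 2% on either day, and the lower end of the 95% Wilson interval was above 20% for all 92 on both days. The lowest share was that of *Mgll*, the monoacylglycerol lipase gene, with 28.2% at D15 (22.7% to 34.6%). The highest was that of *Fbln2*, an extracellular matrix gene, with 81.9% at D15 (79.5% to 84.0%). *Retsat* had 78.2% (74.3% to 81.7%) at D0 and was likewise *cast*-rich in wt, with 78.3% and 76.4%. The share in the control was above that of both wt libraries in 86 of 92 genes at D0 and in 90 of 92 at D15, against 36.6% and 32.2% of all genes with enough SNP reads. With 1 control library a day these differences have no replicate check.

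**Figure D2:**
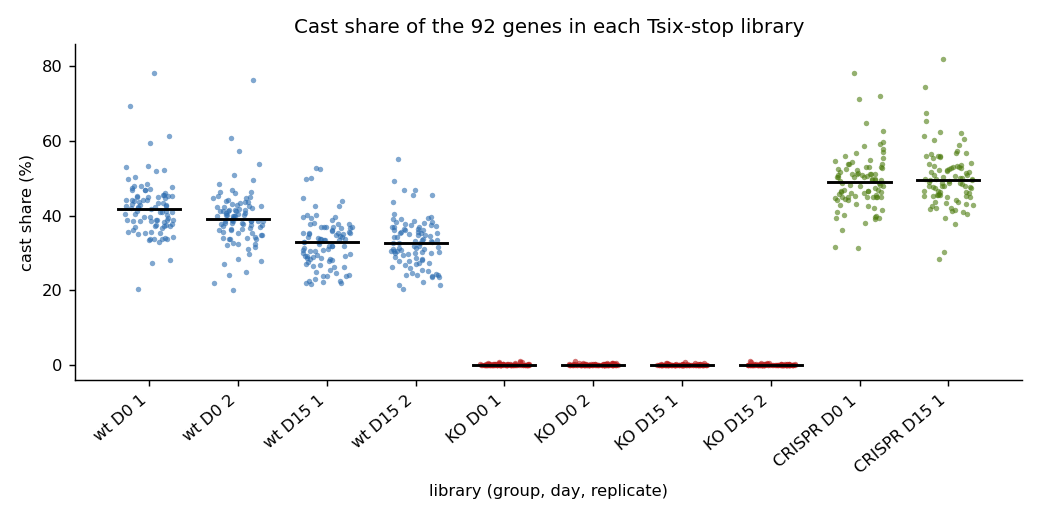
Cast share (%, y axis) of the 92 genes in each Tsix-stop library (x axis), 1 point per gene with the median as a black line. The KO libraries lie at 0% to 1.04%, the wt libraries at 20% to 78.3% and the CRISPR control libraries at 28.2% to 81.9%.

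The missing *cast* reads were accompanied by a lower level of all reads. In CPM, the median log2 fold change of KO against wt was −0.49 at D0 (quartiles −0.67 and −0.27) and −0.35 at D15 (−0.62 and 0.04), against −0.0076 and −0.0018 over the 13121 genes tested. All 92 genes passed the filter on low counts. Both KO libraries lay below both wt libraries in 69 genes at D0 and 53 at D15, where 29.5% and 37.9% of all tested genes did so, and above them in 3 and 13, where 27.7% and 36.2% of all did. The edgeR fit called 0 genes higher and 8 lower at D0 (3.11% and 5.01% of all genes) and 0 higher and 5 lower at D15 (3.83% and 11.1%), at an FDR of at most 0.1 and a change of at least 2-fold. A change of this size in most genes stays under a 2-fold threshold. The D15 median was −0.16 without the first KO library of D15 and −0.55 without the second. In bulk RNA, fewer cells of a type and less RNA per cell cannot be told apart.

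Against the CRISPR control the gap was wider. KO levels were a median of 0.555 of the control at D0 and 0.565 at D15, and both KO libraries were below the control in 90 and 86 of 92 genes, where 37.6% and 43.3% of all tested genes were. The control itself was above both wt libraries in 72 and 81 genes, against 37.6% and 43.9% of all, with median log2 ratios of 0.33 and 0.44 to wt. For the other 263 chromosome 6 genes the median log2 ratio of KO to the control was −0.01 at D0 and 0.12 at D15. These 263 include 60 genes between 120 and 130 Mb, where the control's median log2 level relative to wt was 0.36 and 0.34. By the medians, the order of levels in the stretch was thus KO, then wt, then CRISPR control, on both days. Single genes departed from it: the log2 fold change of KO against wt was above 0 in 6 genes at D0 and 25 at D15.

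**Figure D3:**
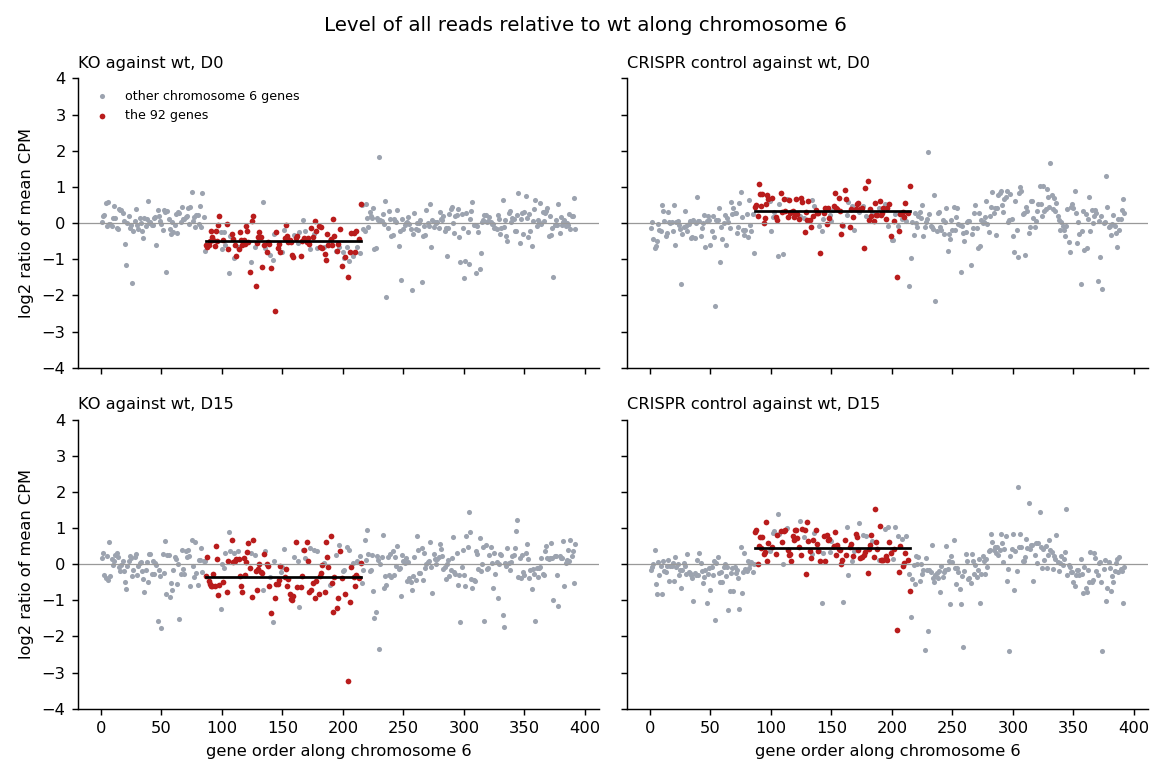
Log2 ratio of mean CPM of all reads (y axis) of KO (left) and the CRISPR control (right) to wt at D0 (top) and D15 (bottom), by gene order along chromosome 6 (x axis), with the 92 genes in red and their median as a black line. The red points sit mostly below 0 in KO (medians −0.49 and −0.35) and above 0 in the CRISPR control (0.33 and 0.44).

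The reads of the maternal allele were not lower in KO. Their level in KO had a median log2 ratio to wt of 0.28 at D0, higher in 73 of 92 genes, and of 0.18 at D15, higher in 66. Other autosomal genes had 0.02 and 0.10, and the other chromosome 6 genes 0.06 and 0.31, so the D15 value was not above that of the rest of the chromosome. The D0 value ranged from 0.15 to 0.34 over the 4 pairs of single libraries, and the D15 value from −0.017 to 0.41, so that at D15 it was not above 0 for every pair. Against the CRISPR control the maternal reads of KO had median log2 ratios of 0.12 and 0.14. Between the control and wt the maternal reads differed by 0.12 and 0.09, while the *cast* reads were higher in the control by 0.61 at D0 and 1.15 at D15.

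The fold change of all reads and the wt *cast* share are set side by side for the 92 genes. The rule used that share and fixed the *cast* reads of KO near 0, and the wt *cast* reads also enter the fold change, so the 2 are tied by construction and nothing is read from their relation. *Retsat*, with the highest wt share at D0, had the lowest fold change, −2.43. *Rpia*, of the pentose phosphate pathway, followed with a mean share of 65.1% and −1.74. The log2 of the maternal share in wt had a median of −0.74 at D0 and −0.57 at D15, and the fold changes lay above it by a median of 0.25 and 0.21. *Fbln2*, with −1.502 and −3.23, lay far below.

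**Figure D4:**
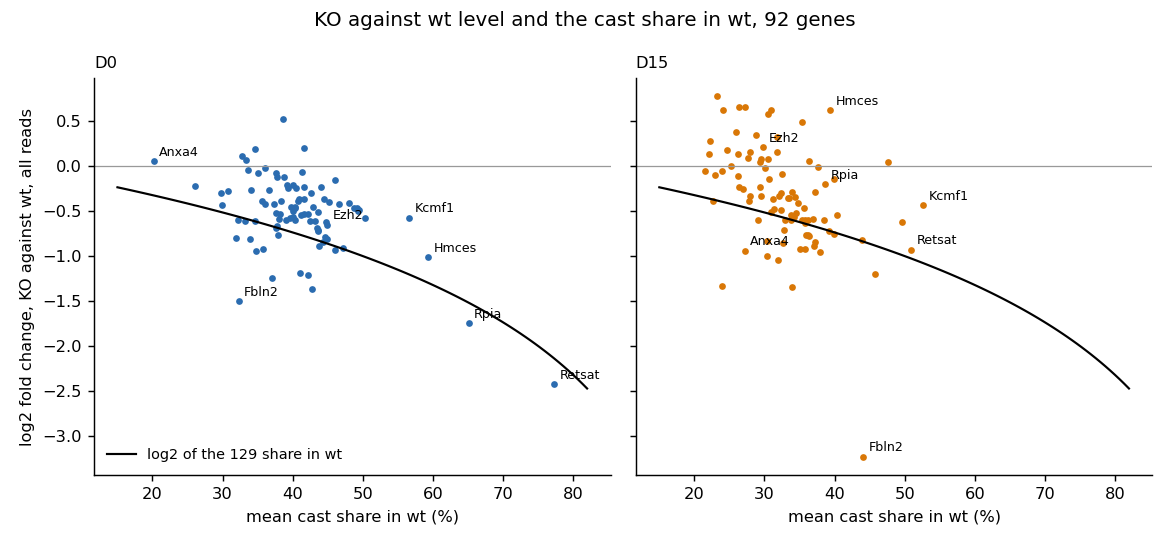
Log2 fold change of all reads in KO against wt (y axis) and the mean cast share in wt (%, x axis) of the 92 genes at D0 and D15, with a black line at the log2 of the maternal share. Most points lie above the line, by a median of 0.25 and 0.21, and Fbln2 lies far below it.

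By function the group was mixed, and at D0 the median of every list was below 0, while at D15 some lay above it. The lists are short and hold mostly genes of chromosome 6, and the fold changes of KO against wt that follow are descriptions. Among chromatin genes, *Ezh2*, the catalytic subunit of Polycomb repressive complex 2 that deposits H3K27 methylation, had 216 and 188 CPM in wt, 126 and 131 CPM in KO and 285 CPM in the CRISPR control at D0. At D15 it had 114 and 107 CPM in wt, 118 and 137 CPM in KO and 213 CPM in the control. The KO libraries were thus below wt at D0 only, and below the control on both days. *Ezh2* was the only gene in the stretch of the 15 listed for H3K27 methylation and demethylation. Of the 13 tested genes of that list, 3 rose and 2 fell between days in wt, where 24.2% and 13.6% of all genes did. In KO 2 rose and 0 fell, where 20% and 7.66% of all did. *Ezh2* was among neither, because its changes were under 2-fold. Its log2 change between days was −0.87 in wt (FDR 0.00023 by edgeR) and −0.0084 in KO (FDR 0.96). Its KO by day interaction was 0.86 (FDR 0.0098 by edgeR), also under 2-fold. The *cast* shares of KO and wt chose the genes, so this test is not independent of the rule. The *cast* reads of *Ezh2* in KO numbered 2 of 6462, and its share in wt fell from 45.3% and 44.6% to 29.4% and 30.2%. *Kdm3a*, an H3K9 demethylase gene, had 303 and 355 CPM in wt against 144 and 140 CPM in KO at D0. *Hmces*, a DNA lesion response gene, had 95.9 and 88.9 CPM against 43.4 and 48.3 CPM. The 3 chromatin genes had a median log2 fold change of −1.01 at D0 and 0.21 at D15.

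The RNA-binding and splicing genes *Hnrnpa2b1*, *Usp39*, *Dusp11* and *Tia1* had medians of −0.55 and −0.29. *Gars*, the selenocysteine elongation factor gene *Eefsec*, the mitochondrial ribosomal gene *Mrpl53* and the stress kinase gene *Eif2ak3* had −0.53 and −0.13. Of 10 listed metabolic genes, which include the enzymes *Hk2*, *Suclg1*, *Hibadh* and *Gfpt1* and the splicing factor *Isy1*, the medians were −0.44 and −0.28. The 4 genes listed under replication and cell cycle, *Mthfd2*, *Dctn1*, *Chmp3* and *Dguok*, had −0.67 and −0.42; these encode a folate enzyme, a dynactin subunit, an ESCRT subunit and a nucleoside kinase. The 9 genes of the secretory pathway and membrane traffic, among them the translocon gene *Sec61a1*, the coatomer gene *Copg1*, the endosomal GTPase gene *Rab7*, *Tgoln1* and *Aup1*, had −0.50 and −0.54. *Immt*, *Htra2* and *Nt5c3*, listed for the mitochondrion, had −0.46 and 0.16. The 7 genes listed for ubiquitin and protein turnover, with *Cul1*, *Kcmf1*, *Rmnd5a*, *Usp39* and the prolyl isomerase gene *Fkbp9*, had −0.57 and −0.06. The transcription factor genes *Tcf7l1*, *Zfp212* and *Zfp638* had −0.50 and −0.54, and the 6 signalling genes, with the plexin gene *Plxna1*, *Aak1*, *Abtb1*, *Rtkn* and *Fbln2*, −0.47 and −0.70. The imprinted list was represented by *Herc3* alone (−0.23 and 0.32). At D15 the values of chromatin, the mitochondrion, *Ezh2* and *Herc3* were above 0.

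The genes at the ends of the range were not those of 1 function. *Gadd45a* (0.19), *Zfp775* (0.21) and *Prickle2* (0.53) had the highest fold changes at D0, and *Gadd45a* (0.66), *Hibadh* (0.65) and *Eefsec* (0.78) at D15. The lowest at D15 were *Fbln2*, *Vamp8*, a vesicle fusion gene (−1.35), and *Mgll* (−1.33).

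The change of level from D0 to D15 was tested. It was not itself a criterion, but the rule asked for SNP reads on both days, which leaves out genes nearly off on 1 of them, so shares are also given for all 8892 tested genes with enough SNP reads in the 8 libraries. In wt, 27 of the 92 genes were called, 9 higher (9.78%, against 24.2% of all 13121 genes and 12.6% of those with enough SNP reads) and 18 lower (19.6%, against 13.6% and 13.0%). *Fbln2* had 7.20 and 8.24 CPM at D0 and 179 and 180 CPM at D15, a log2 fold change of 4.54 (SE 0.24, FDR 3.0e-06 by edgeR). *Anxa4*, a membrane-binding annexin gene, rose by 2.22 and *Osbpl3*, a lipid transfer gene, by 2.08. *Mthfd2*, a mitochondrial folate enzyme gene high in proliferating cells, went from 209 and 126 CPM to 35.2 and 33.1 CPM, a log2 fold change of −2.30 (SE 0.27, FDR 8.7e-05 by edgeR). *Smarcad1*, a chromatin remodeller gene, fell by 1.67 and *Hmces* by 1.57. Among the listed genes *Gars*, *Hnrnpa2b1*, *Cul1*, *Immt*, *Zfp638*, *Tcf7l1*, *Suclg1*, *Isy1* and *Rpia* also fell, by 1.01 to 1.28. Over all 92 genes, called or not, *cast* reads in wt fell between days by a median of 0.57 on the log2 scale. The maternal reads fell by a median of 0.05. Medians of the called genes alone are not given here, and the part of the *cast* reads in these calls was not tested.

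In KO, 11 genes were called between the days, 9 higher (9.78%, against 20% of all genes and 8.90% of those with enough SNP reads) and 2 lower (2.17%, against 7.66% and 5.89%). *Fbln2* rose from 2.81 and 2.63 CPM to 14.4 and 23.7 CPM (log2 fold change 2.81, SE 0.23, FDR 3.2e-05 by edgeR), and *Osbpl3* by 1.34. *Mthfd2* fell by 1.26 and *Htra2*, a mitochondrial protease gene, by 1.02. These calls depended on single libraries, and which genes were called changed when the second KO library of D15 was left out.

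The change between days differed between KO and wt (KO by day interaction, edgeR quasi-likelihood test) in 11 genes, 9 with a higher and 2 with a lower value in KO (9.78% and 2.17%, against 6.62% and 10.5% of all genes, and 4.34% and 5.77% of those with enough SNP reads). This test is the difference between 2 contrasts of KO with wt, from whose *cast* shares the genes were chosen, so the count is read with that in mind. The largest were *Hmces* (1.63), *Rpia* (1.55) and *Retsat* (1.4996), and the lowest *Fbln2* (−1.73) and *Mgll* (−1.45). At D0 *Retsat* stood at 67.9 and 54.97 CPM in wt against 10.9 and 11.9 CPM in KO, and at D15 at 29.9 and 32.98 CPM against 15.1 and 17.99 CPM. Its groups did not overlap on either day. In *Retsat*, *Rpia* and *Hmces* the mean wt *cast* share went from 77.3%, 65.1% and 59.3% at D0 to 51.0%, 38.7% and 39.3% at D15. Its part in the interaction was not tested. In the CRISPR control, where the share of *Retsat* moved from 78.2% to 74.4%, its level went from 74.2 to 53.6 CPM.

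**Figure D5:**
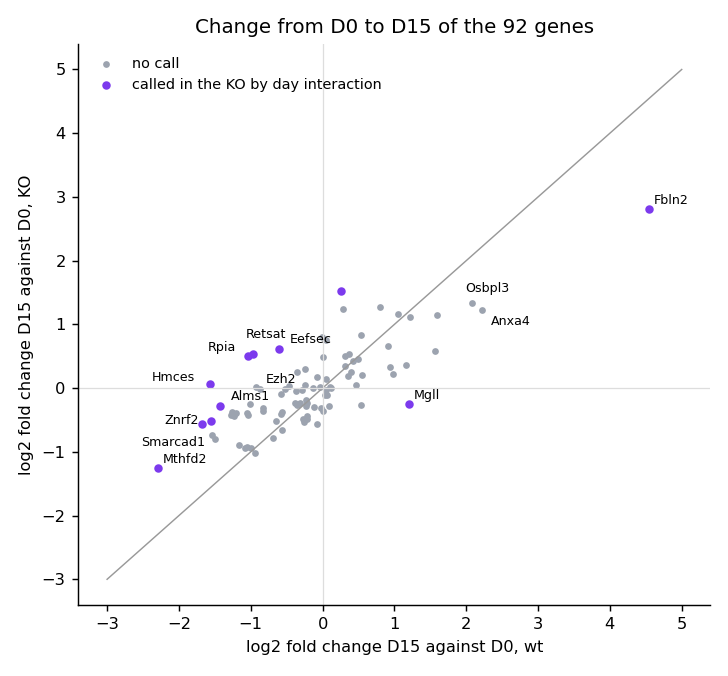
Log2 fold change from D0 to D15 in KO (y axis) against that in wt (x axis) for the 92 genes, with the diagonal of equal change and the 11 genes called in the KO by day interaction in purple. Hmces, Rpia and Retsat lie above the diagonal, Fbln2 and Mgll below it.

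Beside the D15 values of *Fbln2*, *Anxa4*, *Vamp8* and *Osbpl3* stands the higher summed level of fibroblast markers in the wt libraries of that day (6195 and 5721 CPM, against 428 and 565 CPM in KO and 223 CPM in the CRISPR control). In the control, where these markers were lowest at D15, *Fbln2* had 50.9 CPM, against 179 and 180 CPM in wt. *Anxa4* had 76.7 CPM in the control and 64.5 and 65.5 CPM in wt, *Vamp8* 47.4 CPM against 42.1 and 46.4 CPM, and *Osbpl3* 28.2 CPM against 23.9 and 22.3 CPM, so these 3 genes were above wt in it. Pluripotency markers summed to 5338 and 4066 CPM in KO at D15, above the 2851 and 3179 CPM of wt and the 2959 CPM of the control. At D0 the fibroblast markers summed to 27.03 and 28.7 CPM in the wt libraries, 12.5 and 14.7 CPM in those of the KO and 13.4 CPM in the control. The median log2 fold change of the 92 genes, KO against wt, was −0.49 on that day. The part of either marker group in the values of either day and in the interaction was not tested.

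In E8 cells the same genes had both alleles in every library. The alleles were deposited as TPM scaled separately, and as deposited the median *cast* share of the 92 genes was 79.5% to 82.2%. After rescaling the alleles so that the median autosomal gene was balanced, the median *cast* share of the 92 genes was 48.0% to 49.9% over the 8 libraries, against 49.1% to 49.8% for other chromosome 6 genes, and no gene was under 2% in any KO library. Their level was tested with limma on log2(TPM + 1), since only TPM was deposited and the depth is unknown. At D7, 7 of 92 genes were higher in KO (7.61%, against 11.4% of all 12452 genes) and 1 lower (1.09%, against 6.18%). At D15, 2 were higher (2.17%, against 7.67%) and 1 lower (1.09%, against 3.08%). The median log2 difference was 0.22 at D7 and 0.06 at D15, near the 0.10 and 0.09 of all genes. *Fbln2* had 3.46 and 3.38 TPM in wt and 18.7 and 18.8 TPM in KO at D15 (difference 2.16, SE 0.07, FDR 2.1e-07 by limma). *Anxa4* was higher by 1.25, from 15.3 and 15.8 to 38.1 and 38.6 TPM, and *Mthfd2* lower by 1.51 on the log2 scale, from 179 and 184 to 63.2 and 63.4 TPM. *Ezh2* differed by −0.10 at D7 and 0.09 at D15.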

How the data were processed

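RNA-seq of 10 *Tsix*-stop libraries (the 129 strain × *cast*) and 8 E8 libraries (BL6 × *cast*) was used, grouped by line, genotype and day in the labels. For *Tsix*-stop the authors deposited estimated counts per gene, not normalized: counts on each strain's genome, on either, and reads with 129 or *cast* SNPs. The meaning of the columns was read from their names and relations. For E8 the authors deposited TPM only. The submitters' notes name TopHat2 2.1.1, Bowtie2 2.4.5 and mm10. By the methods, allelic reads came from Bowtie2 on pseudo-diploid genomes carrying strain SNPs, and only uniquely mapped reads were kept, so genes with near-identical copies are uncertain. The annotation and any use of strand are not given in the sources used here.

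Counts on the 129 genome were rounded, since 7.10% were not whole. One edgeR 4.0.16 model by group held the 8 libraries of wt and KO (R 4.3.3; quasi-likelihood, TMM factors 0.936 to 1.07). Genes with 2.5 CPM in at least 2 libraries were tested. The E8 test was limma 3.58.1, trend on, applied to log2(TPM + 1) of genes with 2.5 TPM in at least 2 libraries, after summing 537 symbols given more than once. Calls needed an FDR of at most 0.1 (Benjamini-Hochberg over all genes) and 2-fold. CPM used TMM library sizes. In data simulated for wt D15 against D0, edgeR called 97 of 99 genes changed by 1.5 on the log2 scale, 97 of 99 changed by 2, and 3 of 12386 unchanged. The simulation drew each gene with a spread set by its mean level and changed no other group. Its rates may be better than those in the real data. Symbols were placed on GENCODE vM21 (GRCm38, the build of mm10) by symbol (23310) or RefSeq synonym (665), and 371 of 24346 did not match. Replicates differed by far more than counting noise (chi-square per degree of freedom 33.2 to 71.3), so the unit was the library and not the read. This spread does not show that replicates were independent.

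The 92 genes, the gene lists and the tests were chosen with earlier results of these data known. Genes were named by rule: the ends of the stretch and their neighbours, up to 5 genes per list with the highest CPM, the 3 largest changes each way in each comparison, those with most *cast* reads in KO and those next to a threshold. Lists covered chromatin, RNA, replication, translation, metabolism, secretion, mitochondrion, transcription factors, signalling, imprinting, ubiquitin and H3K27 methylation. Alternatives were other thresholds, scalings, filters, counts, DESeq2 1.42.0, a replicate block, a pseudocount of 0.1 and leaving out each library. Figures were drawn with matplotlib 3.10.9. Columns on the *cast* genome were not used. Values of some genes are not reported here.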

Additional observations from a re-analysis of the deposited data

Results flagged for a closer look

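For 11 of the 92 genes, KO and wt *Tsix*-stop cells were called as changing by different amounts between the days (interaction term, edgeR quasi-likelihood test, n = 2 libraries per group). The 9 higher were 9.78%, against 6.62% of all genes and 4.34% of those with enough SNP reads. The 2 lower were 2.17%, against 10.5% and 5.77%. The *cast* shares of KO and wt chose the genes, so the test is not independent of the rule. Among those named here, the KO change was higher than that of wt for *Hmces* (log2 1.63, FDR 0.010), *Rpia* (1.55, FDR 0.013), *Retsat* (1.4996, FDR 0.0034), *Eefsec* (1.23, FDR 0.0063), *Alms1* (1.15, FDR 0.017), *Smarcad1* (1.10, FDR 0.023), *Znrf2* (1.05, FDR 0.023) and *Mthfd2* (1.04, FDR 0.068). It was lower for *Fbln2* (−1.73, FDR 0.0066) and *Mgll* (−1.45, FDR 0.084). *Mgll* lost its call without any 1 of 7 of the 8 libraries and *Mthfd2* without any 1 of 5.

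The D15 difference between KO and wt went opposite ways in the 2 lines for 3 genes called in E8. Their E8 log2 differences were 2.16 for *Fbln2*, 1.25 for *Anxa4* and −1.51 for *Mthfd2* (FDR 2.1e-07, 2.1e-07 and 2.7e-08 by limma), and in *Tsix*-stop cells both KO libraries lay on the other side of both wt libraries. The difference between the lines was not tested. Over the 92 genes, 32 were lower in both *Tsix*-stop KO libraries and higher in both E8 KO libraries, 8 the reverse, and 12 lay on one side in both lines, 9 lower and 3 higher. Over all 11956 genes tested in both lines the share of the first set was 26.4%, that of the reverse 19.0%, lower in both 6.44% and higher in both 13.1%.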

How the results depend on the processing

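The number of genes was 49 when wt had to have a *cast* share of 30% or more, all of them on chromosome 6 between 40 and 100 Mb, and 75 to 112 under the other thresholds. Leaving out 1 library gave 92 to 99 genes, and under every alternative tried all lay in that interval. The median level of all reads in KO against wt was −0.58 to −0.38 at D0 and −0.55 to −0.16 at D15 when 1 library was left out. The median of the maternal reads at D15 was 0.39 without KO replicate 1 and −0.015, so reversed, without KO replicate 2. Those of D0 were 0.19 to 0.34. Leaving out 1 library gave 23 to 30 calls for wt between days, 9 to 13 for KO and 8 to 16 for the interaction, and 7 to 9 and 3 in E8. With no minimum change, 55 genes were called between days in wt, 43 in KO, 27 in the interaction, and 85 and 69 in E8 at D7 and D15. These counts and those with 1 library left out stand without the share called over all genes. Nothing is read from them. The E8 *cast* share was 80.3% as deposited, before rescaling. Of 586 values of named genes under alternatives, 30 were no longer called and none turned. They belong to 43 results of a gene in a comparison, of which 29 kept the call under every alternative.

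The labels number the replicates of every group 1 and 2 but do not say what a number shares. Differences between replicates correlated by −0.21 to 0.23 between groups. With the replicate block, 28 genes were called between days in wt, 11 in KO and 11 in the interaction, and 8 and 3 in E8. These counts also stand without the share called over all genes, and nothing is read from them. The medians of all reads with the block were −0.49 and −0.36. Groups of 2 libraries and 1 control library a day limit every comparison, and *cast* shares of genes near 50 SNP reads are imprecise.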

Other observations

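The CRISPR control had an interval of its own on chromosome 6. For 60 genes between 120 and 130 Mb its median *cast* share was 34.4% at D0 and 33.6% at D15, against 41.97% to 56.4% in the wt and KO libraries, and its median log2 level relative to wt was 0.36 and 0.34, where KO had 0.02 on both days. On chromosome 12 the median *cast* share of 347 genes was 60.7% to 64.9% in wt and 61.7% and 65.1% in the CRISPR control, and 42.1% to 47.5% in the KO libraries. Both are given as values, and no test was made.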
